A study of Mus musculus with 16 samples.

Results

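The wide regions outside promoters are stretches of open chromatin over 1000 bp long, on the autosomes of mouse embryonic stem (ES) cells, whose centre lies in no promoter. They were selected on width and position from a merged list of accessible regions, where a promoter runs from 1000 bp upstream to 100 bp downstream of any transcription start site (TSS) of GENCODE M21. The rule gave 1546 regions, 2.46% of the 62759 autosomal regions centred outside promoters and part of 81132 regions in all. Of the 3856 regions over 1000 bp, another 2208 were autosomal and centred in a promoter, and 102 lay on the X or Y chromosome, 48 of them outside promoters.

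The regions come from 12 ATAC-seq libraries of SBROS cells, a single mouse ES knock-in line made in the SBR reporter line on the CGR8 background, in which SOX2 carries a SNAP tag on both alleles and OCT4 a HALO tag on a single allele. Cells grown with serum, LIF and the inhibitors CHIR99021 and PD184352 were stained for the tags and for DNA content and sorted in G1 phase. The 4 groups had 3 replicates each: cells high in both tagged proteins (SHOH), cells with high SOX2 and low OCT4 (SHOL), the converse (SLOH) and cells low in both (SLOL). The authors pooled the peaks of all libraries into the list, which gives a position and no level, so a region cannot be assigned to a group or a replicate.

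In ATAC-seq the Tn5 transposase cuts where DNA is free of nucleosomes, and a wide region is a long stretch covered by merged peaks. Peaks of different libraries that overlap in part merge into a wider region, so cuts need not be dense along all of it. Long accessible stretches are known from CpG islands, the GC-rich and CpG-rich DNA at most promoters of housekeeping and developmental genes, and from enhancers bound by several factors at once. OCT4 recognises an octamer and SOX2 a short T-rich motif, and both bind side by side to a composite of these motifs in many pluripotency enhancers, while CTCF binds a long motif of its own and leaves a narrow accessible site.

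The first sequences show how different the wide regions were in base composition. All are from the mm10 assembly (GRCm38), plus strand unless stated, 5′ to 3′, and each is the 200 bp at the centre of its region. The widest CpG-rich region, 2402 bp at chr6:85511429-85513830 in an exon of Egr4, which codes for a zinc finger transcription factor, had 71.3% GC. Its centre at chr6:85512530-85512729 held 21 CpG dinucleotides, printed in capitals. The 2 wide regions whose closest TSS was that of a gene in the naive pluripotency list used below were poorer in GC and held few CpGs. One was 1329 bp long in an intron of Tet2, which codes for an enzyme that oxidises methylated cytosine (44.8% GC, centre at chr3:133533850-133534049, with the SOX motif in capitals), and the other was 1105 bp long and intergenic, 23169 bp downstream of the TSS of Prdm14, a repressor that sustains pluripotency (51.2% GC, centre at chr1:13103894-13104093, with a FOX motif on the minus strand in capitals).
Egr4: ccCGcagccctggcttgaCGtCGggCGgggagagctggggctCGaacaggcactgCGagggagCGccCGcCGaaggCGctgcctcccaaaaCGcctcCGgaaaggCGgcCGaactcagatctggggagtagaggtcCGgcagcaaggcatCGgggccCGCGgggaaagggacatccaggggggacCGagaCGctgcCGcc
Tet2: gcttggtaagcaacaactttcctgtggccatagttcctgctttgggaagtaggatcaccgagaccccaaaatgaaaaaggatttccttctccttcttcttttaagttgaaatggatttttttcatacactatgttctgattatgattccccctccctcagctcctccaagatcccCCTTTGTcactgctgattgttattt
Prdm14: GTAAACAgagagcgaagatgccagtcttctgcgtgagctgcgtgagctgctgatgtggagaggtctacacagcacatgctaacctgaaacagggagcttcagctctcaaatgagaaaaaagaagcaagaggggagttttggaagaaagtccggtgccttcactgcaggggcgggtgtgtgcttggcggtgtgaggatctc

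The widest region with an octamer and a SOX motif within its central 1000 bp was 1870 bp long, at chr16:50528720-50530589 in an intron of G730013B05Rik. Its central 200 bp, at chr16:50529555-50529754, held neither motif. The stretch with both, at chr16:50529753-50529873 and chosen after its values were seen, is shown because it places the motifs of both tagged factors in a single wide region. Its capitals mark an octamer on the minus strand and a SOX motif on the plus strand. A region of 1018 bp in an intron near Lifr, the gene of the LIF receptor, held 2 octamers in opposite orientation at chr15:7115842-7115927, in capitals, and was also chosen after its values were seen.
G730013B05Rik, centre: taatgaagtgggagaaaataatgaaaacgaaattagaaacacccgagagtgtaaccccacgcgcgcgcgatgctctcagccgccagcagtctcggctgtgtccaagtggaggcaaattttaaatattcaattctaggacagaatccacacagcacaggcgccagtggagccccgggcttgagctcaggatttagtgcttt
G730013B05Rik, motifs: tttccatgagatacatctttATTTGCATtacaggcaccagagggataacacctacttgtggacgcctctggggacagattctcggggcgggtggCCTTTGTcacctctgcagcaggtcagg
Lifr: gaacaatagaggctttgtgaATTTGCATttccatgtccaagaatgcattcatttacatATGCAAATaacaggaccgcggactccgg

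The SOX-OCT composite was present in 13 wide regions, of which 10 did not overlap a promoter, 7 were intergenic and 5 were in introns. The widest of them, fixed by rule, was a region of 2238 bp in an exon of A730013G03Rik, with the composite at chr1:192834792-192834851. The 9 others shown were chosen after their values were seen, from the 10 regions that overlapped no promoter, because they show which forms the composite took there. Each is 60 bp with the composite in capitals, printed on the strand that carries it, and is named after the gene with the closest TSS. They lie at chr7:73400372-73400431 (Gm44758), chr2:117019051-117019110 (Gm13981, minus strand), chr11:62511612-62511671 (Gm12949), chr3:112952171-112952230 (Utp14b-ps1), chr7:138455023-138455082 (Gm45686), chr5:67633489-67633548 (Gm23617), chr11:112811243-112811302 (Gm11681), chr6:60994250-60994309 (Gm18838) and chr14:99339815-99339874 (Gm22984, minus strand).
A730013G03Rik: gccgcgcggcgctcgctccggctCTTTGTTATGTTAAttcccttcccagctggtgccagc
Gm44758: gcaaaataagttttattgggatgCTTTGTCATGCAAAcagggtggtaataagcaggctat
Gm13981: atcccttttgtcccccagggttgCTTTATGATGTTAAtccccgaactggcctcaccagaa
Gm12949: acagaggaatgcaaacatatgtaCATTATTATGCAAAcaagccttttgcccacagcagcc
Utp14b-ps1: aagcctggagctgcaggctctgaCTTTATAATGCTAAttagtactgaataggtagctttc
Gm45686: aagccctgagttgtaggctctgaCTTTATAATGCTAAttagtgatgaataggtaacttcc
Gm23617: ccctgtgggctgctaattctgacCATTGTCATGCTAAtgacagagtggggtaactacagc
Gm11681: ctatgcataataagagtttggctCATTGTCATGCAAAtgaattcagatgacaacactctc
Gm18838: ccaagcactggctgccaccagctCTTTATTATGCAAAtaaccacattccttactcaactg
Gm22984: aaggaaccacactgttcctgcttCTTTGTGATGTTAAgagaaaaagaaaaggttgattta

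The composites shown varied in both parts, within the letters that the search allowed. In 2 of the 10 windows, those of Gm11681 and Gm18838, the composite ran on into the complete octamer. The windows of Utp14b-ps1 and Gm45686 shared 52 of 60 bases (86.7%), and both of their regions were over 50% soft-masked, the lower-case marking of repeats in the genome sequence. No other pair of windows shared more than 48.3% of its bases.

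A last set shows a unit that recurred between wide regions and within them. In 38 wide regions the YY1 motif AAGATGGCG occurred at least 2 times on the same strand, most often exactly 212 bp apart, and 3 of these regions are represented by the stretch from one motif, with 20 bp on either side, to the next. They were chosen after the values were seen, from the widest with this spacing, and lie at chr15:103411450-103411710 (near Gtsf1, minus strand), chr2:172007673-172007933 (near Gm14641, minus strand) and chr1:61499023-61499283 (near Gm28449, plus strand). The motifs are in capitals. Over 261 bp the first pair had 97.7% of bases in common, and each of them shared 248 of 261 bases with the sequence near Gm28449, although they come from 3 chromosomes.
Gtsf1: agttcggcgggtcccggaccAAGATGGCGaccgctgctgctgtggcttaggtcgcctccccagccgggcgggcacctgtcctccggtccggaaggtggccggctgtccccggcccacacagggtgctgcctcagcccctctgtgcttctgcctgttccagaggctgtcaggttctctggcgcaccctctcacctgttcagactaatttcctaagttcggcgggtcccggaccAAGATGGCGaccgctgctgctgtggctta
Gm14641: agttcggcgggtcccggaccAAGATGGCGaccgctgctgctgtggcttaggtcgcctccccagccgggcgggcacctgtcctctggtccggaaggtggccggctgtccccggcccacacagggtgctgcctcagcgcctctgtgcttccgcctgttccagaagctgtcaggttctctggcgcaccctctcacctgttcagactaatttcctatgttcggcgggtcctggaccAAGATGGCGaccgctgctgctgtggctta
Gm28449: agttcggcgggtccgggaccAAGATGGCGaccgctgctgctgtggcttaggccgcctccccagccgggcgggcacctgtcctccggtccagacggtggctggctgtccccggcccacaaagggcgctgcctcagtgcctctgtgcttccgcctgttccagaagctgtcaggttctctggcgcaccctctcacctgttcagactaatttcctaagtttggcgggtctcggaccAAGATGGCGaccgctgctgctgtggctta

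Width chose the regions and was not tested. They were 1001 to 3635 bp wide, with quartiles of 1059, 1144 and 1300 bp, so that most were not far above the limit. Just inside the limit, 339 regions of 1001 to 1050 bp had a median GC content of 54.9%, 36.6% of them overlapped a promoter and 35.7% were CpG-rich. Just outside it, the 382 autosomal regions of 951 to 1000 bp centred outside promoters had a median GC content of 54.9%, 36.6% overlapped a promoter and 32.5% were CpG-rich. The limit of 1000 bp thus did not mark a step in these features.

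Although no wide region was centred in a promoter, 712 of the 1546 (46.1%, 95% Wilson interval 43.6 to 48.5%) overlapped one with an edge. Among the 61213 other regions outside promoters, which were up to 1000 bp wide, 4.33% did so (4.17 to 4.50%). A wider region reaches a promoter from farther away, so part of this difference follows from the rule. Conversely, of all regions centred outside promoters that overlapped a promoter 21.2% were wide (712 of 3364, 19.8 to 22.6%), against 1.40% of those that did not (834 of 59395, 1.31 to 1.50%). The wide regions therefore fell into a group at promoters and a group of 834 that touched none, which are called off promoters from here on and are described separately where they differed.

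Of the 712 regions at promoters, 676 contained a TSS, for 636 of them that of a protein-coding gene. Measured from the closest TSS, they extended a median of 360 bp upstream (quartiles 272 and 434 bp) and 848 bp downstream (737 and 998 bp). All 676 reached farther downstream than upstream, which follows from the rule, since the centre had to lie more than 100 bp past the TSS. The upstream edges were the narrower distribution in the plot of region edges, and the downstream edges had a long tail up to 2160 bp. These regions thus covered a TSS together with the start of its gene.

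**Figure D1:**
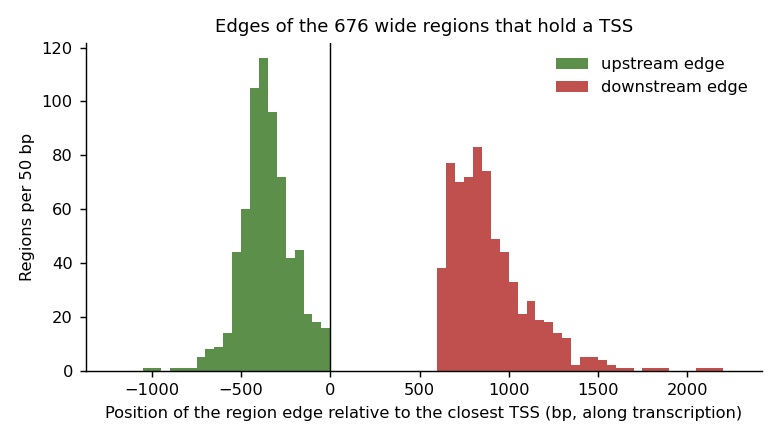
Edges of the 676 wide regions with a TSS, as the number of regions per 50 bp against the distance of each edge from the closest TSS in bp along the direction of transcription (green, upstream edge; red, downstream edge). The median upstream edge lies 360 bp before the TSS and the median downstream edge 848 bp after it.

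By the annotation at the centre, 36.6% of the wide regions were exonic (566 regions), 35.4% intronic (548) and 27.9% intergenic (432). Exons were more frequent than in the narrower regions outside promoters, by 26.2 percentage points (95% Newcombe interval 23.8 to 28.6), and introns and intergenic sequence less frequent, with differences of -9.35 points (-11.7 to -6.90) and -16.8 points (-19.0 to -14.5). Most of the exonic regions were at promoters, where 63.1% were centred in an exon. Off promoters the order changed. There, 51.0% of the wide regions were intergenic, 35.0% intronic and 14.0% exonic, and compared with narrower regions off promoters both exons (5.58 points more, 3.38 to 8.12) and intergenic sequence (4.58 points more, 1.17 to 7.99) were more frequent, while introns differed by -10.2 points (-13.4 to -6.84).

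The distance from the centre to the closest TSS had a median of 1482 bp over all wide regions, 244 bp at promoters and 13054 bp off promoters. In narrower regions outside promoters the median was 10295 bp. The closest gene was protein-coding for 1047 wide regions (67.7%), a processed pseudogene for 140 (9.06%) and a lincRNA for 129 (8.34%).

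Wide regions had fewer neighbours than narrower ones. Another region of the list lay within 5 kb of the edge for 475 (30.7%, 28.5 to 33.1%), against 47.4% of the narrower regions outside promoters, a difference of -16.7 points (-19.0 to -14.3). Off promoters the difference was similar in size, at -15.0 points (-18.1 to -11.7). Wide promoter-centred regions had a neighbour in 27.1%. Narrower promoter-centred regions were not counted, so whether that share goes with width is not known.

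Base composition separated the wide regions into groups. A region was called CpG-rich when its GC content was at least 50% and its ratio of observed to expected CpG at least 0.6. This held for 722 wide regions (46.7%, 44.2 to 49.2%), for 7.75% of the narrower regions outside promoters and for 88.9% of the wide promoter-centred regions. The wide regions outside promoters were thus 38.9 points above the former (36.5 to 41.5) and differed by -42.2 points from the latter (-45.0 to -39.4). At promoters 78.5% were CpG-rich, with a median GC content of 63.0% and a CpG ratio of 0.734, close to the 63.0% and 0.776 of the promoter-centred ones. Off promoters 19.5% were CpG-rich (17.0 to 22.4%), with a median GC content of 50.7% and a CpG ratio of 0.310. This was still 13.7 points (11.1 to 16.5) more than the 5.88% of narrower regions off promoters.

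**Figure D2:**
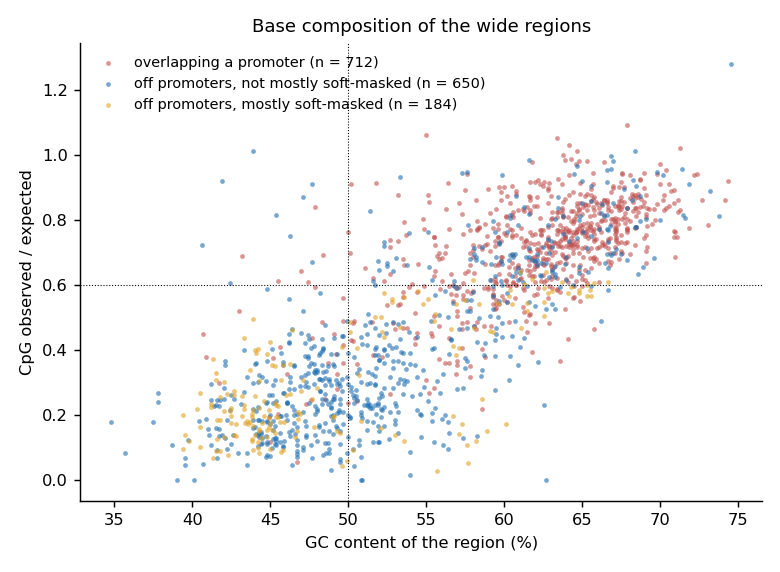
GC content in percent (horizontal) and ratio of observed to expected CpG (vertical) of each wide region, coloured by group, with dotted lines at 50% and 0.6. The regions at promoters gather in the upper right, where 78.5% of them are CpG-rich, and the mostly soft-masked regions off promoters have a median GC content of 45.9%.

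Off promoters, CpG-rich regions were most frequent near genes. Of the 91 regions off promoters with a TSS within 2 kb, 63.7% were CpG-rich (53.5 to 72.9%). The share was 25.6% of 121 regions at 2 to 5 kb, 15.6% of 307 at 5 to 20 kb, 8.36% of 275 at 20 to 100 kb and 7.50% of 40 beyond 100 kb. The share of regions over 50% soft-masked went the other way, from 2.20% within 2 kb to 55.0% beyond 100 kb.

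The GC content was higher than in flanks of the same width 5 kb away that held no listed region, which 1520 of the 1546 wide regions had. The median difference within a pair was 13.9 percentage points, with 1423 regions above and 96 below their flank (two-sided exact sign test, p = 1.5e-303). At promoters the median difference was 19.9 points, with 698 of 705 pairs higher, and off promoters it was 7.42 points, with 725 of 815 pairs higher. In the plot of GC content around the centre, the regions at promoters rose to a mean of 66.9% and were at 43.6% in the outermost bin, while the off-promoter regions that were not mostly soft-masked rose from 44.5% to 53.8% over a plateau as wide as the regions. Off-promoter regions over 300 and up to 1000 bp peaked at 51.1%, over a shorter distance. Mostly soft-masked regions off promoters had 50.9% at the centre, near the narrower regions, and 39.7% in the outermost bin.

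**Figure D3:**
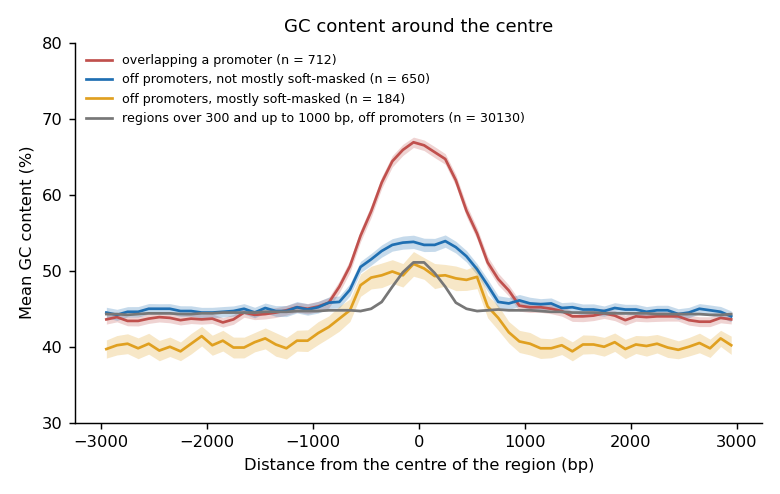
Mean GC content in percent per 100 bp against distance from the centre in bp, for 3 groups of wide regions and for off-promoter regions over 300 and up to 1000 bp; shading is the 95% interval of the mean. Regions at promoters peak at 66.9%, off-promoter regions that are not mostly soft-masked are at 53.8% at the centre, and the narrower regions peak at 51.1%.

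Motifs were counted on both strands in the 1520 pairs of a wide region and its flank. The letters searched were ATGCAAAT (octamer), CCATTGT or CCTTTGT (SOX), TCAAGGTCA (ESRRB), CCACACCC (KLF), TTCCNGGAA (STAT), TGANTCA (AP-1), GGGGCGGGG (SP), CACGTG (E-box), GCGCATGCG (NRF1), AAGATGGCG (YY1), CCGGAAGT (ETS), CATTCCA (TEAD), AGATAAG (for GATA factors), TGTTTAC (FOX), CCTGCTG (ZIC), GTTGCCATG (RFX) and AGGCCTNG (ZFX), besides the CTCF motif and the SOX-OCT composite. The composite can overlap a SOX motif and an octamer. Of the 19 motifs, 11 were more frequent in wide regions, 5 were more frequent in flanks and 3 (ESRRB, TEAD and RFX) did not differ past an adjusted p of 0.05. A match is a description of the sequence and not of binding.

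**Figure D4:**
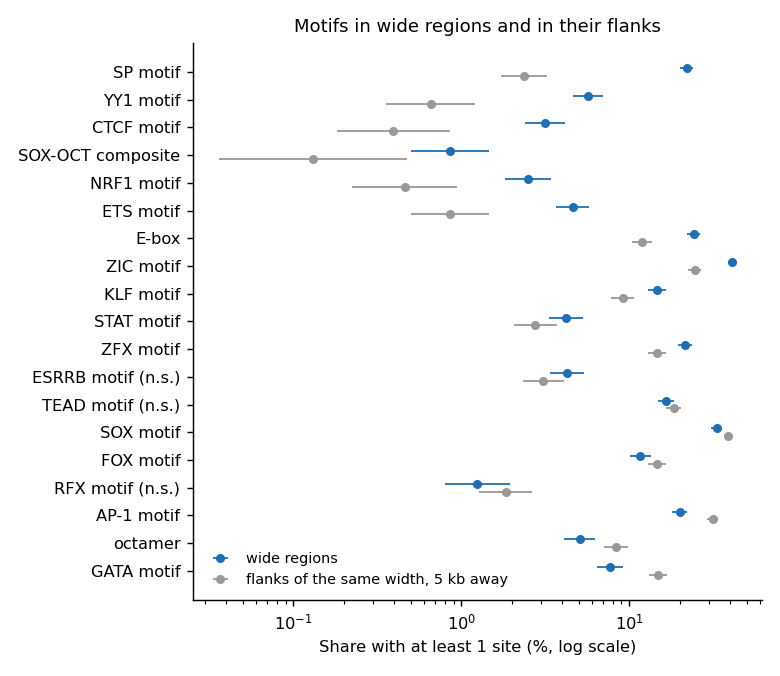
Share of 1520 wide regions (blue) and of their flanks (grey) with at least 1 site, in percent on a log scale, with 95% Wilson intervals; n.s. marks an adjusted p above 0.05 in the exact McNemar test. The SP motif, in 22% of regions and 2.37% of flanks, has the highest ratio, and the GATA motif, in 7.70% and 14.9%, the lowest.

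The largest contrast was in the SP motif, a GC-rich site of promoters, present in 334 wide regions (22%) and 36 flanks (2.37%; present in the region alone in 328 pairs and in the flank alone in 30, two-sided exact McNemar test, adjusted p = 3.2e-63). It was found in 35.3% of the regions at promoters and 10.4% of those off promoters. Among pairs that differed by at most 5 points of GC content the difference was 4.81 points and no longer past the threshold (exact test, adjusted p = 0.0513). ZIC was present in 41.1% of wide regions and 24.6% of flanks (region alone in 467 pairs, flank alone in 216, exact test, adjusted p = 3.6e-21) and the E-box in 24.3% and 12.0% (322 and 135 pairs, exact test, adjusted p = 6.8e-18). These motifs were about as frequent off promoters, at 41.3% and 24.3%, as at promoters, at 40.9% and 24.3%. KLF, ZFX, ETS, NRF1 and STAT were also more frequent in wide regions than in flanks. STAT had the highest adjusted p of these, in 4.21% and 2.76% (61 and 39 pairs, exact test, adjusted p = 0.0418), and it was no longer past the threshold under 5 of 7 alternatives. NRF1 was no longer past it under 3 and KLF under 1, the central 300 bp (0.855 points), and ZFX changed direction in pairs with similar GC (-1.72 points). ETS was past it under all 7.

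The motifs of the tagged factors were less frequent in wide regions than in flanks when counted alone. The octamer was in 77 regions (5.07%, 4.07 to 6.29%) and 127 flanks (8.36%, 7.07 to 9.85%; region alone in 69 pairs and flank alone in 119, exact test, adjusted p = 5.2e-04). The SOX motif was in 33.2% and 38.9% (302 and 388 pairs, exact test, adjusted p = 0.00175). AP-1, GATA and FOX, which like them are rich in A and T, were also more frequent in flanks. In the 291 pairs of similar GC content, the SOX motif was 21.0 points more frequent in the wide regions (exact test, adjusted p = 9.9e-06) and FOX 11.7 points more (exact test, adjusted p = 0.00174), while the octamer differed by 1.72 points (exact test, adjusted p = 0.633). AP-1 and GATA also changed direction in these pairs, without passing the threshold. With regions at promoters left out, SOX and FOX changed direction and none of the 5 motifs was past the threshold. The cause of this change was not tested.

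The SOX motif varied between groups of wide regions. At promoters it was in 22.8% of regions and 37.7% of flanks, in off-promoter regions that were not mostly soft-masked in 36.4% and 37.2%, and in mostly soft-masked ones in 62.8% and 49.4%. The highest share was thus in the mostly soft-masked regions, and whether the motifs lay within the masked sequence was not tested. The octamer went another way, with 3.55% of regions and 8.65% of flanks at promoters, 6.93% and 6.14% in off-promoter regions that were not mostly soft-masked, and 4.44% and 15.0% in mostly soft-masked ones. ESRRB, a nuclear receptor of naive pluripotency, had its motif in 6.63% of off-promoter regions and 3.56% of flanks, a difference past the threshold when regions at promoters were left out (3.07 points, exact test, adjusted p = 0.0154).

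Over all pairs, the composite was the exception among the motifs of SOX2 and OCT4. It was in 13 wide regions (0.855%, 0.500 to 1.46%) and in 2 flanks (0.132%; region alone in 13 pairs and flank alone in 2, exact test, adjusted p = 0.0100). It was no longer past the threshold under 4 of 7 alternatives, and past it under the other 3. Among the 4 were flanks 10 kb away (exact test, adjusted p = 0.114) and leaving out regions at promoters (exact test, adjusted p = 0.0666). With regions at promoters left out, the octamer and the SOX motif were not past it either. Of regions over 300 and up to 1000 bp outside promoters 0.294% held it, or 0.00595 sites per kb against 0.00689 in wide regions. Off promoters, where 10 of the 13 lay, the densities were 0.0101 sites per kb in wide regions and 0.00638 in narrower ones. These densities were not tested. Of the 13 composites 11 lay in the inner 50% of the region (84.6%, 57.8 to 95.7%), and in regions over 300 and up to 1000 bp 57 of 96 did (59.4%, 49.4 to 68.7%), with overlapping intervals.

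The CTCF motif had a different arrangement from that in narrower regions. It was in 48 wide regions (3.10%, 2.35 to 4.09%), although 8.03% of the regions over 300 and up to 1000 bp held it (7.74 to 8.33%). Within the central 300 bp it was in 3 wide regions (0.194%, 0.0660 to 0.569%) and in 7.03% of the narrower ones. The odds were taken as pairs with the motif in the central 300 bp of the region alone over pairs with it in that of the flank alone. These odds in wide regions were 0.0233 times those in narrower regions (95% interval 0.00377 to 0.144). For wide regions they rest on 3 pairs with the motif in the region alone and 2 in the flank alone. The 51 CTCF sites of wide regions had a median position at 0.570 of the way from centre to edge, against 0.321 in narrower regions, and 37.3% of them lay in the inner 50% of the region (25.3 to 51.0%) against 71.0% (69.2 to 72.7%). In the plot of site positions, 2 of the 51 sites in wide regions (3.92%) were in the innermost of 5 equal parts. The CTCF motif was thus rare at the centre of wide regions, but it was still more frequent in wide regions than in their flanks (3.16% and 0.395%, region alone in 48 pairs and flank alone in 6, exact test, adjusted p = 7.7e-09).

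**Figure D5:**
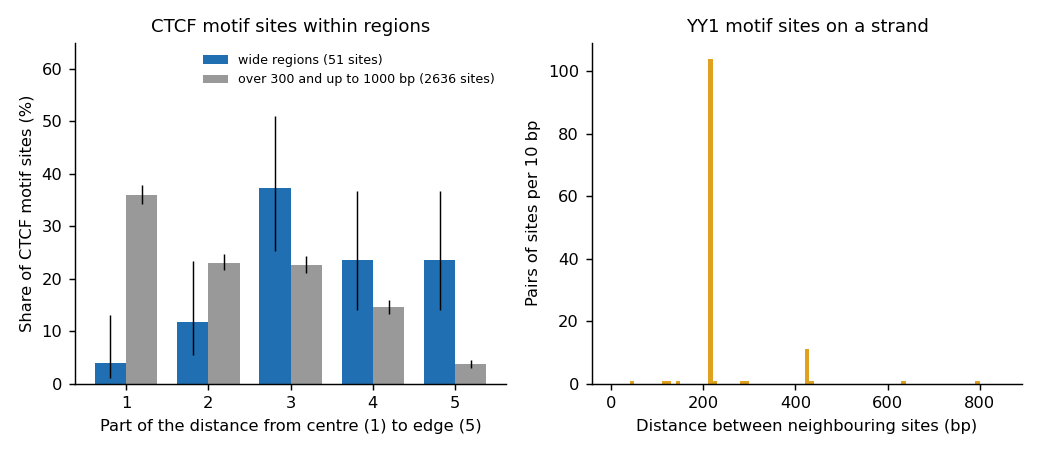
Left, share of CTCF motif sites in percent over 5 equal parts of the distance from the centre of the region to its edge, with 95% Wilson intervals, for wide regions and for regions over 300 and up to 1000 bp outside promoters; right, distance in bp between neighbouring YY1 motifs on a strand, as pairs of sites per 10 bp. The innermost part holds 3.92% of the CTCF sites in wide regions and 36.0% in the narrower ones, and 100 of 125 YY1 distances are 212 bp.

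Other motifs whose odds ratio in the central 300 bp, wide against narrower regions and each relative to flanks, had an interval below 1 were RFX (0.176, 0.0359 to 0.864), the octamer (0.426, 0.241 to 0.756), KLF (0.435, 0.285 to 0.665), AP-1 (0.570, 0.423 to 0.768) and ZIC (0.713, 0.550 to 0.924). RFX rests on 2 wide regions with the motif in the central window and not in its flank. The ratios for the composite (0.493, 0.0880 to 2.76) and the SOX motif (0.898, 0.711 to 1.13) had intervals that include 1, and so did those for NRF1, ESRRB, GATA, TEAD and FOX, which were also below 1. SP, at 1.73 (0.909 to 3.27), and the E-box, at 1.44 (0.984 to 2.11), were above 1 with intervals that include it. The same held for ETS (1.31, 0.285 to 6.03), ZFX (1.16, 0.824 to 1.64), YY1 (1.14, 0.399 to 3.27) and STAT (1.05, 0.485 to 2.26). These ratios pool regions at and off promoters, and 6.78% of the narrower regions overlapped a promoter, against 46.1% of the wide ones. Off promoters alone, the shares with a site in the central 300 bp were 1.92% (1.18 to 3.09%) in wide and 2.62% (2.45 to 2.81%) in narrower regions for the octamer, and 8.03% (6.38 to 10.1%) and 9.77% (9.44 to 10.1%) for AP-1, with overlapping intervals. KLF, at 4.56% (3.34 to 6.19%) and 6.92% (6.64 to 7.22%), and ZIC, at 12.5% (10.4 to 14.9%) and 17.9% (17.5 to 18.3%), were lower in wide regions there too, with intervals that did not overlap, and so was CTCF, at 0.240% (0.0658 to 0.870%) and 7.42% (7.13 to 7.72%). The central 300 bp is a smaller part of a wide region than of a narrower one. Over whole regions off promoters, KLF was in 15.8% of wide and 9.63% of narrower regions, ZIC in 41.6% and 24.5%, and CTCF in 3.96% and 8.40%. In sites per kb, KLF had 0.152 and 0.229, ZIC 0.487 and 0.598, and CTCF 0.0362 and 0.175. The RFX motif was in the centre of 1 wide region off promoters. The SOX motif was in 17.3% (14.9 to 20.0%) and 15.5% (15.1 to 15.9%), with overlapping intervals.

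Repeats made up a separate group of wide regions. Over 50% of the sequence was soft-masked in 185, or 12.0% of all wide regions against 16.6% of narrower regions outside promoters, a difference of -4.62 points (-6.17 to -2.88). All but 1 of the 185 were off promoters, and among regions off promoters the direction was the opposite. There the share was 22.1% (19.4 to 25.0%) against 17.2% of narrower ones, a difference of 4.86 points (2.16 to 7.82). The 184 mostly soft-masked regions off promoters had a median GC content of 45.9%, a CpG ratio of 0.236 and a median distance of 21975 bp to the closest TSS, and 71.2% were intergenic. Copies of the same sequence elsewhere in the genome were counted as other loci with at least 90% identity over at least 500 bp. Of all wide regions 1336 (86.4%, 84.6 to 88.0%) had none, 114 had at least 10 and 45 at least 1000. Those with at least 1000 were all off promoters and mostly soft-masked. The libraries were restricted to uniquely mapped reads, so accessible copies that reads cannot tell apart are missing from the list, and the number of such copies is unknown. No wide region matched the mitochondrial genome.

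Compared with each other, 98 wide regions resembled at least 1 other in 20 groups. The largest group had 33 regions, with a median GC content of 61.0%, 93.1% soft-masked sequence and a median of 1280 other loci. All 33 held the YY1 motif and 29 a SOX motif. The next group had 8 regions with a median GC content of 41.4%, a SOX motif in all 8 and no YY1 motif.

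The YY1 motif was the second in ratio between wide regions and flanks, in 5.66% and 0.658% (region alone in 84 pairs and flank alone in 8, exact test, adjusted p = 2.0e-16), though in pairs of similar GC content the difference was 1.72 points (exact test, adjusted p = 0.390). Its distribution was uneven. It was in 42 of 184 mostly soft-masked regions off promoters (22.8%, 17.4 to 29.4%), in 12 of 650 others off promoters (1.85%) and in 33 of 712 at promoters (4.63%). A single motif was present in 49 wide regions and at least 2 in 38. These 38 held 163 motifs, up to 9 in a region, with all motifs of a region on the same strand. All 38 were off promoters and 37 were over 50% soft-masked. They were spread over 15 chromosomes, 26 intergenic and 12 in introns, with a median GC content of 60.4%, a median of 1278 other loci and a median distance of 23552 bp to the closest TSS.

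Of the 125 distances between neighbouring YY1 motifs in these regions, 100 were exactly 212 bp, and 117 were within 8 bp of a multiple of it. This period is the unit printed above for Gtsf1, Gm14641 and Gm28449. Of the 38 regions 30 also held a SOX motif. As background, the promoters of young mouse L1 retrotransposons are built of tandem GC-rich monomers with YY1 sites. No repeat class was assigned to the regions here, since the genome sequence used marks repeats without naming them. Leaving out wide regions with at least 10 other loci, an alternative chosen after the data were seen, lowered the difference in the YY1 motif from 5.00 to 2.77 points (exact test, adjusted p = 9.5e-08).

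The 5 widest regions were off promoters, while 4 of the next 5 were at promoters, and the median width was 1183 bp at promoters and 1120 bp off promoters. The widest of all was 3635 bp, intergenic at chr4:3177761-3181395, 5780 bp downstream of the TSS of Vmn1r3, a vomeronasal receptor gene, with 56.7% GC, a CpG ratio of 0.196 and 72.3% soft-masked sequence. The next were 3210 bp in an intron of Mapk6, a kinase gene, and 2819 and 2775 bp near Vmn1r-ps7, a vomeronasal receptor pseudogene. A region of 2770 bp near Vmn1r238, another gene of that family, followed. Egr4 (2402 bp), Gdf3 (2265 bp), a gene of a TGF-beta family ligand expressed in pluripotent cells, Unc45b (2257 bp), Itpripl2 (2252 bp) and A730013G03Rik (2238 bp) completed the 10 widest. Among them Unc45b, the gene of a myosin chaperone, had the highest GC content at 74.6% and a CpG ratio of 1.28, while lying off promoters at 2209 bp from the closest TSS.

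The regions near vomeronasal receptor genes lay close to the starts of their chromosomes. Within 300 kb of the first assembled base there were 15 wide regions among the 163 regions outside promoters there (9.20%, and 2.45% elsewhere). This was noticed from the widest regions and was not tested. They included 4 of the 5 widest, 13 of them were off promoters, 10 were over 50% soft-masked, and all 15 had 0 other loci at 90% identity over 500 bp. The cause of their width was not tested.

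By chromosome, 155 wide regions lay on chromosome 6, or 10.6 per 10 Mb, while the other autosomes had 4.57 to 7.34 with a median of 6.24. The share of wide regions among regions outside promoters was 2.76% on chromosome 6, within the range of 1.80 to 3.01% of the others, whose median was 2.40%. Off promoters chromosome 6 had 6.56 wide regions per 10 Mb, and the others 2.23 to 4.44 with a median of 3.15. All regions outside promoters were denser there too, at 384 per 10 Mb against 205 to 294 with a median of 248. The cause was not tested.

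By the closest TSS, the wide regions belonged to 1491 genes, 5.99% of the 24895 genes that were closest to any autosomal region outside promoters. Of these, 1437 had a single wide region, 53 had 2, and Gm49792, a processed pseudogene near the start of chromosome 17, had 3. The genes with 2 and the largest summed width were Vmn1r-ps7, Ppp2r5a, C530025M09Rik, Bcl11b, Dab1, Stox2, 2700054A10Rik, Sp8 and Pde4d. Bcl11b, a transcription factor gene, had a CpG-rich region of 1974 bp in an exon 87058 bp from its closest TSS and a region of 1207 bp in an intron, and Sp8, the gene of an SP factor of the limb and brain, had CpG-rich regions of 1897 bp in an exon and of 1189 bp upstream of the gene. Stox2 had 2 regions of 1738 and 1400 bp, each across a separate TSS, with 70.4% and 69.3% GC.

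Gene lists were counted among the genes closest to a region outside promoters, against the 5.99% of all such genes. Among genes of naive pluripotency 2 of 23 (8.70%, 2.42 to 26.8%) had a wide region, Tet2 and Prdm14, and among genes of formative pluripotency 0 of 12 (up to 24.2%). The neuroectoderm list had 4 of 14 (28.6%, 11.7 to 54.6%), with Atoh1, Pax6, Meis1 and Zic1, and the mesendoderm list 4 of 16 (25.0%, 10.2 to 49.5%), with Sox17, Foxa1, Eomes and Mesp1. Genes of trophectoderm had 2 of 11, Eomes and Tfap2c, and signalling genes 3 of 27, the receptor genes Fgfr2 and Lifr and the kinase gene Jak1. Ribosomal protein genes had 6 of 48 (12.5%, 5.86 to 24.7%), of which Rps26, Rplp1 and Rpl24 had the widest, and olfactory receptor genes 2 of 198 (1.01%, 0.277 to 3.61%), Olfr1368 and Olfr24. These shares depended on how the closest gene was taken. With TSSs of protein-coding genes alone, 10.1% of all closest genes had a wide region. So did 5 of 23 naive genes (21.7%), 4 of 18 neuroectoderm genes (22.2%) and 4 of 18 mesendoderm genes (22.2%). For trophectoderm it was 3 of 11 (27.3%), for signalling 6 of 28 (21.4%) and for formative pluripotency 1 of 14 (7.14%). Ribosomal protein genes had 6 of 60 (10.0%) and olfactory receptor genes 6 of 257 (2.33%). With regions at promoters left out, 3.23% of all closest genes had a wide region, and neuroectoderm had 3 of 14 (21.4%) and mesendoderm 2 of 16 (12.5%). The differences between lists were not tested.

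Among the neuroectoderm genes, all of them transcription factors, Atoh1 had a region of 1530 bp over its TSS with 59.7% GC, and Zic1 and Meis1 had CpG-rich regions of 1102 and 1144 bp. The region of 1284 bp upstream of Pax6 had 57.6% GC and was not CpG-rich. Of the mesendoderm genes, Sox17 had the widest region, 2110 bp over the TSS of this endoderm factor, with 65.2% GC. Foxa1 and Eomes, genes of factors of endoderm and mesendoderm, followed with 1116 and 1110 bp, and Mesp1, a gene of early mesoderm, had 1019 bp. All 4 were CpG-rich. The ribosomal protein regions were all at promoters, and their widest was 1849 bp at Rps26.

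Pou5f1, which codes for OCT4, and Sox2, the genes of the tagged factors, Sox1 and T, the genes of the reporters, and Nanog, another gene of pluripotency, were each the closest gene of 0 wide regions. The closest wide region lay 574950 bp from Pou5f1, 2039076 bp from Sox2, 1390551 bp from Sox1 and 1920936 bp from T. Their own regions outside promoters, 3 for Pou5f1, 1 for Sox2, 0 for Sox1 and 7 for T, did not reach the width limit. Nanog differed in having a wide region 4775 bp from its TSS and 2 within 100 kb. For comparison, 16.8% of all genes had a wide region within 100 kb of a TSS. Of all closest genes, 5.99% had a wide region. Counts for so few genes cannot set them, or Nanog, apart from other genes, and this was not tested.

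The wide region near Nanog was 1042 bp long at chr6:122702193-122703234, intergenic, with 50.0% GC. It contained in full an enhancer of 404 bp, at chr6:122702524-122702927, that RefSeq annotates in the regulatory region of Nanog 5′ of the gene, and was assigned to the pseudogene Gm10224 by the closest TSS. The 200 bp at its centre, at chr6:122702614-122702813, lie inside that enhancer and held none of the 19 motifs. They are shown, chosen after the values were seen, because this is the wide region with an annotated enhancer of a pluripotency gene.
Nanog, upstream: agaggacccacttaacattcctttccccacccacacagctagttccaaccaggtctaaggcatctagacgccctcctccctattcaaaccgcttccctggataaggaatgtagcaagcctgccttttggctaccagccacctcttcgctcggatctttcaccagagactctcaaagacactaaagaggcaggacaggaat

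RefSeq annotates few enhancers in mouse. An enhancer feature overlapped 11 wide regions, of which 9 were off promoters (1.08% of 834, 0.569 to 2.04%), and 0.581% of the off-promoter regions over 300 and up to 1000 bp (0.501 to 0.673%). The intervals overlapped. By name, the wide regions with RefSeq elements included the Pax6 upstream regulatory region with 4 enhancers, a region of 1010 bp in the locus control region of the beta-globin genes, centred at -8198 bp from the TSS of Hbb-y, the regulatory region 5′ of Bmp2, the promoter region of Fgfr2, and enhancer clusters of Ranbp17, Mcl1 and Sall1 mapped by CRISPR interference. Apart from the enhancers of Pax6, Nanog and beta-globin, those that overlapped wide regions were elements of the VISTA collection. These names were picked after the overlaps were seen.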

How the data were processed

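The authors aligned the reads of the 12 ATAC-seq libraries to mm10 with STAR (2.5.3a), kept those mapped uniquely, removed duplicates (Picard), called peaks per library on whole fragments with MACS2 (2.1.1.20160309), merged them with BEDOPS and dropped any that coincided with peaks of ChIP-seq input DNA. No Tn5 shift is named. The list deposited by the authors holds 3 columns of another kind (other), the position of each merged region, with no level or library. Depth is therefore unknown from it, no replicate error can be attached to a region, and the 4 groups were not compared. The ChIP-seq samples were not analysed here.

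Regions were placed on GENCODE M21 and the RefSeq copy of GRCm38 with Python (3.11.15), numpy (2.4.6), pandas (2.3.3), scipy (1.17.1), matplotlib (3.10.9), samtools (1.23.1) and BLAST+ (2.17.0). The class was that at the centre, and the closest gene that of the closest TSS. Coordinates count from 1. Shares carry 95% Wilson intervals and differences Newcombe intervals, which cover counting error only. Neighbouring regions are not independent replicates. GC content was compared with flanks by a two-sided exact sign test, and motifs by two-sided exact McNemar tests with Benjamini-Hochberg adjustment over 19 motifs. Odds ratios compare the odds of region-alone to flank-alone pairs between wide and narrower regions and carry 95% Wald intervals. The tests were first tested on simulated data. Members and gene lists were chosen with earlier results of these data known. Named genes were those of the 10 widest regions, the 10 with the most wide regions, the list genes with a wide region (the 3 with the widest for ribosomal proteins), and Pou5f1, Sox2, Nanog, Sox1 and T. Others were chosen after their values were seen. Alternatives changed the width limit, joining, promoters, overlap, repeats, chromosomes, flanks, windows and closest genes.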

Additional observations from a re-analysis of the deposited data

How the results depend on the processing

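Of 229 values recomputed under alternatives, 165 counted as unchanged, and of the 139 for motifs and GC content 104 did. Leaving out regions with a mitochondrial match removed no region, so the values under it were unchanged by construction. The intervals of the gene lists were wide, so that 8.70% and 21.7% of naive genes counted as unchanged. A tested value counted as unchanged when it kept its direction and its side of the threshold, a share or median when it stayed within its interval, and the number of regions when it was within 1.5 times the reported one, which holds for 1953 and 1897 against 1546. The cause was not tested for those that did not. The higher GC content of wide regions than of flanks was past the threshold under every alternative run on it. Matching on GC could not be applied to GC content itself, and a distance within 100 kb gives no median distance to the closest TSS. No paired analysis was possible because the merged list carries no library or replicate. Leaving out regions with at least 10 other loci, leaving out regions near chromosome starts and adding promoters of curated RefSeq transcripts were chosen after seeing the data. Motif values below are wide region minus flank in percentage points, with the adjusted p of the exact test.

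Over 800 bp there were 3769 regions with a median width of 956 bp, over 1500 bp there were 158 with 1687 bp, and with neighbours within 500 bp joined there were 3162 with 1216 bp. With promoters up to 1000 bp downstream of the TSS there were 812 regions, 17.5% of them CpG-rich, with a median GC content of 50.3%. Leaving out regions that overlap a promoter gave 834, with 19.5% and 50.7%. Promoters of protein-coding transcripts alone gave 54.0% CpG-rich, a median GC content of 59.5% and 32.9% in introns, and promoters of transcripts with the basic tag gave 54.0% and 59.7%. Without mostly soft-masked regions, 52.5% were CpG-rich and the median GC content was 59.4%. Without regions with at least 10 other loci, 49.8% were CpG-rich.

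With flanks 2 kb away, SOX was at -3.19 (exact test, p = 0.0914) and STAT at 0.586 (p = 0.505), no longer past the threshold, and RFX reversed to 0.130 without passing it. With flanks 10 kb away this held for the composite at 0.527 (exact test, p = 0.114) and STAT at 0.593 (p = 0.477). In pairs with similar GC, SOX reversed to 21.0 and FOX to 11.7, both past the threshold. The octamer (1.72), AP-1 (0.344), GATA (2.41), TEAD (5.15) and ZFX (-1.72) reversed without passing it. ESRRB passed it at 6.87, and the composite (1.37), STAT (3.09), SP (4.81), NRF1 (0.344) and YY1 (1.72) no longer did. In the central 300 bp, SOX reversed to 1.91 without passing, and the composite (0.263), KLF (0.855), STAT (0.724), CTCF (0.0658), NRF1 (0.329) and FOX (-0.724) no longer passed. With regions at promoters left out, SOX reversed to 2.33, FOX to 1.10 and TEAD to 0.245 without passing. ESRRB passed at 3.07, and the octamer (-1.72), the composite (0.982), STAT (1.23), AP-1 (-4.42), NRF1 (0.982) and GATA (-3.68) no longer did.

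With protein-coding TSSs alone, 10.1% of closest genes had a wide region and the median distance to the closest TSS was 3136 bp. Counting wide regions within 100 kb gave 16.8% of genes, 30.4% of naive genes and 8.98% of olfactory receptor genes. With regions at promoters left out, 3.23% of closest genes, 3.70% of signalling genes and 0% of ribosomal protein genes had a wide region, and the median distance was 13054 bp.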
